A study of Rattus norvegicus with 2 samples.

Results

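The contractile apparatus of H9c2 cells, a cardiomyoblast line established from the heart of a rat embryo, was examined through the genes of actins, actin-related proteins, alpha-actinins, Arp2/3 subunits, myosins, tropomyosins, calponins and troponins. Members were chosen by gene symbol alone from an NCBI gene table for the rat assembly GRCr8. In it, 96 protein-coding genes had a matching symbol, among them Tnni3k, which was counted with the troponins by its symbol only. Of the 96 genes, 44 were among the 7803 entries with a usable gene identifier, and the other 52 were not analysed here. The high phosphate culture received 2.5 mM phosphate and the control culture 0.9 mM, both without serum and for 12 h. Both cultures were of the same line and carried no other stated treatment, and each phosphate level had 1 RNA sequencing library. Differences given here therefore lack any replicate check, and the phosphate levels could not be tested against each other. Levels are FPKM (mapped fragments of a gene, relative to transcript length and library size) as the authors deposited them, so levels of different genes can be compared per length. How many reads lie behind a value is unknown.

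Actin monomers polymerise into filaments that carry both the shape of a cell and, with myosin, its contraction. The Arp2/3 complex starts new filaments as branches on existing ones, and alpha-actinins bundle them. Class II myosins pull on actin through heavy chains, each bound by an essential and a regulatory light chain. Tropomyosin, calponin and, in striated muscle, the troponin complex lie along the filament and govern access of myosin to it. Cultured myoblasts hold mostly cytoplasmic and smooth muscle isoforms, and sarcomere isoforms appear as muscle cells mature.

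Of the 44 listed members, 28 had a mean of at least 1 FPKM over both libraries and are called measured, and 16 were low. Libraries were compared by the log2 ratio of high phosphate over control, each with 1 FPKM added, so that differences at low FPKM come out smaller than in the listed values. None of the 28 measured members was 2-fold higher or 2-fold lower on this scale, against 1.76% of all 4366 measured genes that were at least 2-fold higher and 0.87% that were at least 2-fold lower. At a threshold of 1.5-fold, 2 members (7.14%) were higher, which lies near the 7.24% of all measured genes, and none was lower, against 3.37% of all measured genes. These 2 were Arpc2 and Acta2. Log2 ratios above 0 were found for 18 members (64.3%) and for 50.5% of all measured genes. The median log2 ratio was 0.11 over the members and 0.00 over all measured genes.

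The libraries could be set level in more than one way. After the high phosphate library was rescaled so that both had the same sum of listed FPKM, the median log2 ratio was -0.15 over all measured genes and -0.04 over the members. On that scale 12 of 28 members (42.9%) were above 0, against 32.2% of all measured genes, and neither Arpc2 (0.58) nor Acta2 (0.51) reached 1.5-fold, as 4.47% of all measured genes did. The sign of the log2 ratio was the same in 22 members under all 4 rescalings tried, 12 of them higher and 10 lower in high phosphate. The other 6 were Actg1, Acta1, Arpc1a, Arpc3, Arpc5l and Myl9, which were higher as deposited and lower at the same sum.

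**Figure D1:**
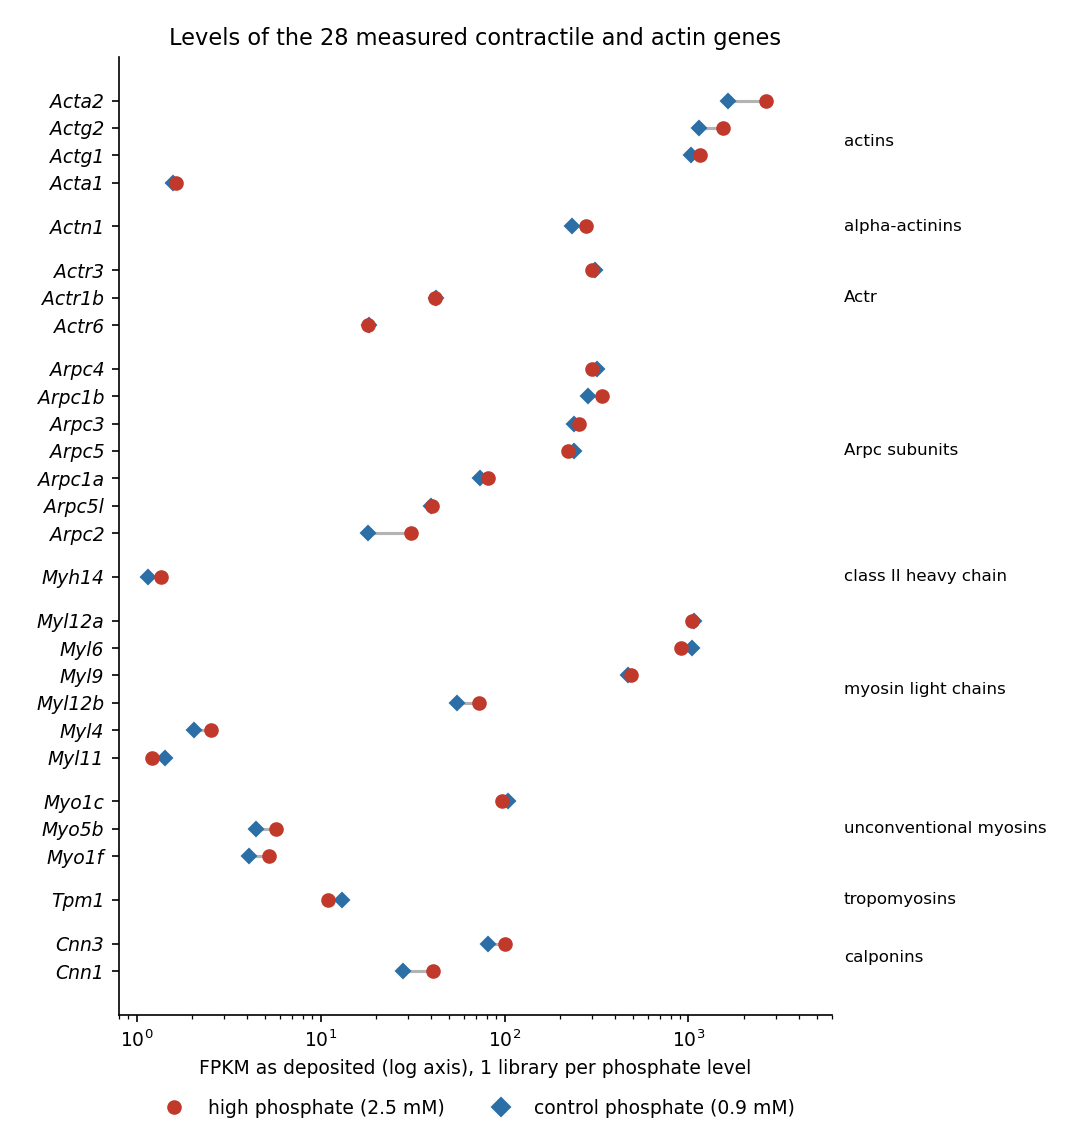
FPKM of the 28 measured members on a log axis, grouped by family, with circles for the high phosphate library and diamonds for the control library. Levels span from 1.15 FPKM for Myh14 in the control to 2651 FPKM for Acta2 in high phosphate, and the widest gaps between the symbols are those of Acta2, Arpc2 and Cnn1.

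The actins were the most abundant members. Acta2, the smooth muscle alpha-actin that also marks myofibroblasts, was listed at 2651 FPKM in high phosphate and 1647 FPKM in the control, a log2 ratio of 0.69. It ranked 16th of the 7803 genes in the high phosphate library and 27th in the control library. Such a rank does not depend on how the libraries were scaled to each other.

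Actg2, the gamma-actin of visceral smooth muscle, was listed at 1546 FPKM in high phosphate and 1139 FPKM in the control, a log2 ratio of 0.44. Actg1, a cytoplasmic actin of most cells, was listed at 1162 FPKM in high phosphate and 1031 FPKM in the control (log2 ratio 0.17 as deposited and -0.00 at the same sum). Acta1, the skeletal alpha-actin, was near the floor with 1.64 FPKM in high phosphate and 1.57 FPKM in the control. The smooth muscle actins thus differed more between the libraries than the cytoplasmic one. The beta-actin gene Actb and the cardiac actin gene Actc1 were not analysed here.

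The composition of the 4 listed actins can be read within each library, free of any scaling between them. Shares of the whole actin pool cannot be given, because Actb and Actc1 were not analysed here. Acta2 made up 49.5% of the summed FPKM of the 4 listed actins in high phosphate and 43.1% in the control. Actg1 made up 21.7% in high phosphate and 27.0% in the control. Actg2 held 28.8% in high phosphate and 29.8% in the control, and Acta1 held 0.0306% in high phosphate and 0.0411% in the control. The ratio of Acta2 to Actg1 was 2.28 in high phosphate and 1.60 in the control, and the ratio of Actg2 to Actg1 was 1.33 in high phosphate and 1.11 in the control. The summed level of the 4 actins was 5361 FPKM in high phosphate and 3819 FPKM in the control. Actin coding sequences are nearly identical, and the gene table named 15 pseudogenes in this family, 11 of them of Actg1. The sources used here do not say how reads shared between such copies were assigned, so the split among isoforms is uncertain.

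**Figure D2:**
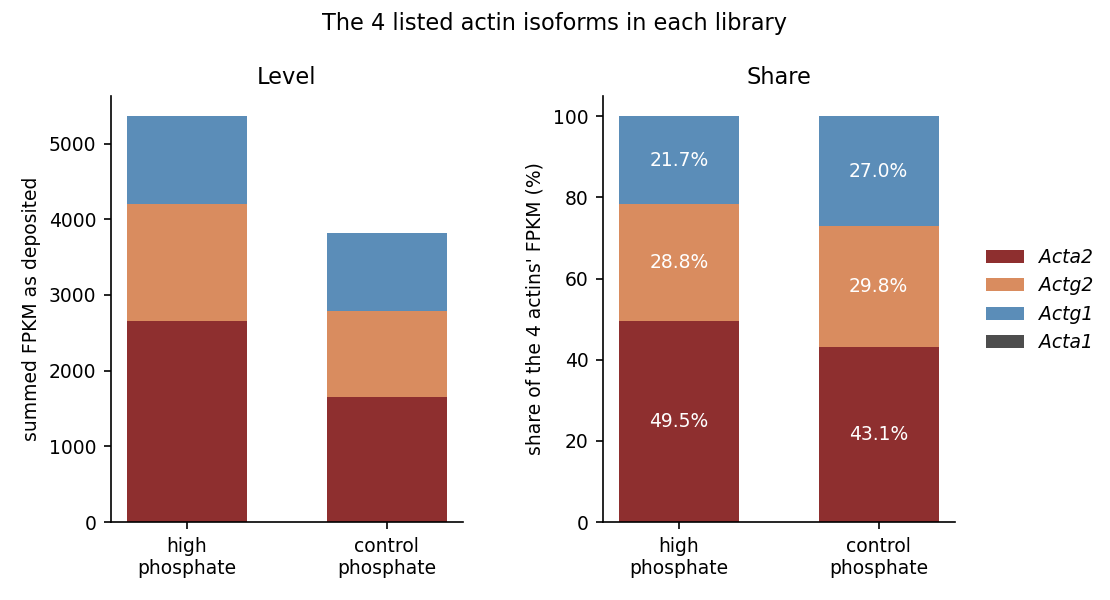
Left, summed FPKM of the 4 listed actin isoforms in the high phosphate and the control library. Right, each isoform's share of that sum in percent, with Acta2 at 49.5% in high phosphate and 43.1% in the control; Acta1 is too small to be seen.

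Promoter sequence was examined for the actins because several actin genes are textbook targets of serum response factor, which binds the CArG box. The box was searched in RefSeq windows (build GRCr8) that run from 250 bases before to 50 bases after each gene start. It is its own reverse complement, so both strands were covered. An exact box was found in 1.64% of all 33469 windows and in 1.14% of the 3770 windows of measured genes, and these shares were 9.42% and 8.22% when 1 of the A or T bases in its middle was allowed to be G or C. The 26 measured members in the table had 27 windows, of which 2 (7.41%) held an exact box, those of Actg1 and Acta1, and 4 (14.8%) held an exact or relaxed one, the others being Acta2 and Myl11. The 3 actin windows with a match are shown, 5′ to 3′ on the gene's strand, with exact and relaxed boxes in capitals. They lie on the minus strand at chr1:241172454-241172753 for Acta2, chr10:106120902-106121201 for Actg1 and chr19:68784145-68784444 for Acta1.
Acta2: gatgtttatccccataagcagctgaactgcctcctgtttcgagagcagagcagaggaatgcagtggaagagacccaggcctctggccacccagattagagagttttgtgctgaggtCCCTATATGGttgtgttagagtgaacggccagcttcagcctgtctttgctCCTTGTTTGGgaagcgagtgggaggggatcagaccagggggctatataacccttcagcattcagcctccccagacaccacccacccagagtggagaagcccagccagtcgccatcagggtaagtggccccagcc
Actg1: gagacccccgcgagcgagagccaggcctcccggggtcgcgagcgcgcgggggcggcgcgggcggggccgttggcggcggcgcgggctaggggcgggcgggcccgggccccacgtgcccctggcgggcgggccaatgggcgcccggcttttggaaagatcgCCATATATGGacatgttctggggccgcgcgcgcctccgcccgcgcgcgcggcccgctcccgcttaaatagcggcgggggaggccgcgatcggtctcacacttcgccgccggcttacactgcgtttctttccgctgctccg
Acta1: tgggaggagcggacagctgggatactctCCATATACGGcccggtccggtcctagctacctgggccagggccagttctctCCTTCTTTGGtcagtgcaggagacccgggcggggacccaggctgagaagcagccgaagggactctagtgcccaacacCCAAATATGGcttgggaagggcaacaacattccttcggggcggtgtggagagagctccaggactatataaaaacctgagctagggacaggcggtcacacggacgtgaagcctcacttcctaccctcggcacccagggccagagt
Acta2 held 2 relaxed boxes, which start 134 and 84 bases before the gene start. Actg1 held 1 exact box that starts 90 bases before it, and Acta1 held 1 exact box at 94 bases and 2 relaxed ones farther upstream. Boxes thus stood in the window of the actin with the largest difference (Acta2, log2 ratio 0.69) and in those of Actg1 (0.17, and -0.00 at the same sum) and Acta1 (0.04, and -0.07 at the same sum). No match was found in the window of Actg2, nor in those of Cnn1 and Arpc2, which says only that these letters are not there. The Actg2 window already holds a start codon with codons after it, within the 50 bases after the listed gene start. Whether it covers the promoter of Actg2 was not tested, so its lack of a match does not describe that promoter.

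Alpha-actinins, which bundle actin filaments, were represented by 1 measured gene. Actn1, the alpha-actinin of stress fibres and adhesions, was listed at 278 FPKM in high phosphate and 234 FPKM in the control (log2 ratio 0.25). Actn3, the alpha-actinin of fast muscle fibres, was low, with 0.65 FPKM in high phosphate and 0.6 FPKM in the control. Actn2 and Actn4 were not analysed here.

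Among the actin-related proteins, Actr3, the Arp3 subunit of the Arp2/3 complex, had 300.4 FPKM in high phosphate and 309.9 FPKM in the control. Actr1b, a centractin of the dynactin complex, had 41.8 FPKM in high phosphate and 42.6 FPKM in the control. Actr6, a nuclear actin-related protein of a chromatin remodelling complex, had 18.1 FPKM in high phosphate and 18.3 FPKM in the control. These 3 had log2 ratios from -0.04 to -0.01 as deposited, and Actr2, the other actin-related subunit of the Arp2/3 complex, was not analysed here.

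All 7 Arpc genes, which encode the remaining subunits of the Arp2/3 complex, were measured. Arpc2, a core subunit that contacts the mother filament, was listed at 30.9 FPKM in high phosphate and 18.1 FPKM in the control, and its log2 ratio of 0.74 was the highest of the 28 measured members. The other 6 lay between -0.10 and 0.25. Arpc2 also had the lowest level of the 7 in both libraries. It stood at 0.130 of the median of the other 6 in high phosphate and at 0.0758 of it in the control. The other 6 include alternative forms of the same subunit, Arpc1a with Arpc1b and Arpc5 with Arpc5l. The complex holds its subunits in equal numbers as proteins, which RNA levels need not follow. What sets the low listed level of Arpc2 was not tested.

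Of the other subunits, Arpc1b was listed at 339.96 FPKM in high phosphate and 285.7 FPKM in the control, and its alternative form Arpc1a at 81.5 FPKM in high phosphate and 73.4 FPKM in the control. Arpc3 had 253 FPKM in high phosphate and 239 FPKM in the control. These 3 were higher as deposited, but Arpc1a and Arpc3 turned lower at the same sum. Arpc4 had 300.5 FPKM in high phosphate and 319 FPKM in the control, and Arpc5 had 222 FPKM in high phosphate and 238 FPKM in the control. Arpc5l, the alternative form of Arpc5, had 40.6 FPKM in high phosphate and 39.7 FPKM in the control. Summed over the 7 genes, the level as deposited was 1268 FPKM in high phosphate and 1213 FPKM in the control. After rescaling to the same sum, 2 of the 7 had a log2 ratio above 0, and the median of the 7 was -0.09.

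The motor side of the apparatus was listed mainly through its light chains. Myl12a, a regulatory light chain of non-muscle and smooth muscle myosin, had 1044 FPKM in high phosphate and 1076 FPKM in the control. Myl6, the essential light chain of the same myosins, had 907 FPKM in high phosphate and 1046 FPKM in the control, a log2 ratio of -0.21. Myl9, a regulatory light chain typical of smooth muscle, had 489 FPKM in high phosphate and 471 FPKM in the control (log2 ratio 0.05 as deposited and -0.12 at the same sum). The 3 abundant light chains were therefore close to level or lower while Acta2 and Actg2 were higher.

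Myl12b, a near-copy of Myl12a, had 72.5 FPKM in high phosphate and 55.2 FPKM in the control, the highest log2 ratio of the light chains (0.39). The ratio of Myl12b to Myl12a was 0.0694 in high phosphate and 0.0513 in the control. Shared reads between these copies make that split uncertain too. Of the light chains of striated muscle, Myl4, the embryonic and atrial form, had 2.53 FPKM in high phosphate and 2.05 FPKM in the control. Myl11, the fast skeletal regulatory form, had 1.21 FPKM in high phosphate and 1.43 FPKM in the control. Myl1 and the ventricular form Myl2 were low, at up to 0.13 FPKM.

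Of the class II heavy chains, 7 were listed, and only Myh14, a non-muscle form, was measured, with 1.35 FPKM in high phosphate and 1.15 FPKM in the control. The genes of the main non-muscle heavy chains, Myh9 and Myh10, were not analysed here, so the heavy chain partner of the abundant light chains was not seen. Myh11, the smooth muscle heavy chain, had 0.61 FPKM in high phosphate and 0.6 FPKM in the control. This marker of differentiated smooth muscle was thus near the floor in the same libraries in which Acta2 was among the most abundant genes. Myh1, a fast skeletal form, was listed at 0 FPKM in high phosphate and 0.58 FPKM in the control, and a listed 0 can be a failed estimate. Myh3, the embryonic skeletal form, Myh4, Myh7 and Myh7b were listed at 0.26 FPKM or less in both libraries. The 7 heavy chains together summed to 2.29 FPKM in high phosphate and 2.62 FPKM in the control. Of this sum, Myh14 held 59.0% in high phosphate and 43.9% in the control. Myh11 held 26.6% in high phosphate and 22.9% in the control. These are shares of values near the floor, without Myh9 and Myh10, and they also depend on the listed 0 of Myh1.

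Unconventional myosins carry membranes and vesicles along actin. Myo1c, which links membranes to actin and is known for its part in glucose transporter delivery, had 96.9 FPKM in high phosphate and 104.7 FPKM in the control (log2 ratio -0.11). Myo5b, a motor of recycling endosomes, had 5.71 FPKM in high phosphate and 4.44 FPKM in the control. Myo1f, best known from leukocytes, had 5.25 FPKM in high phosphate and 4.1 FPKM in the control. The most abundant of them was lower in high phosphate, and the other measured ones were higher, with log2 ratios of 0.30 and 0.29. Myo1a, Myo5a and Myo7b were low, at up to 0.45 FPKM, and 18 further genes of the family were not analysed here.

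Along the filament, the 2 listed calponins were higher and the 1 listed tropomyosin, Tpm1, was lower in high phosphate. Cnn1, the smooth muscle calponin, had 40.8 FPKM in high phosphate and 28.1 FPKM in the control, a log2 ratio of 0.52. Cnn3, the acidic calponin of many cell types, had 100.9 FPKM in high phosphate and 81.1 FPKM in the control (log2 ratio 0.31). Tpm1 had 10.97 FPKM in high phosphate and 13.1 FPKM in the control, and its log2 ratio of -0.24 was the lowest of the 28 measured members. Both calponins kept their sign under the 4 rescalings, as did Tpm1. The table names 28 transcripts of Tpm1, and 1 value per gene does not show which of them were present. The other tropomyosins, Tpm2, Tpm3 and Tpm4, were not analysed here.

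Troponins, the calcium switch of striated muscle, were low wherever they were listed. Tnnt3, the fast skeletal troponin T, had 0.75 FPKM in high phosphate and 0.33 FPKM in the control. Tnni2, the fast skeletal troponin I, had 0.06 FPKM in high phosphate and 0.11 FPKM in the control, and Tnnt1 was listed at 0 in both libraries. The cardiac troponin genes Tnnt2, Tnni3 and Tnnc1 were not analysed here. Over all 16 low members, 7 had the higher value in high phosphate, 5 had it in the control, 3 were listed at 0 in both libraries and Myl1 had 0.05 FPKM in both. At such values a difference was not detectable with 1 library each.

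**Figure D3:**
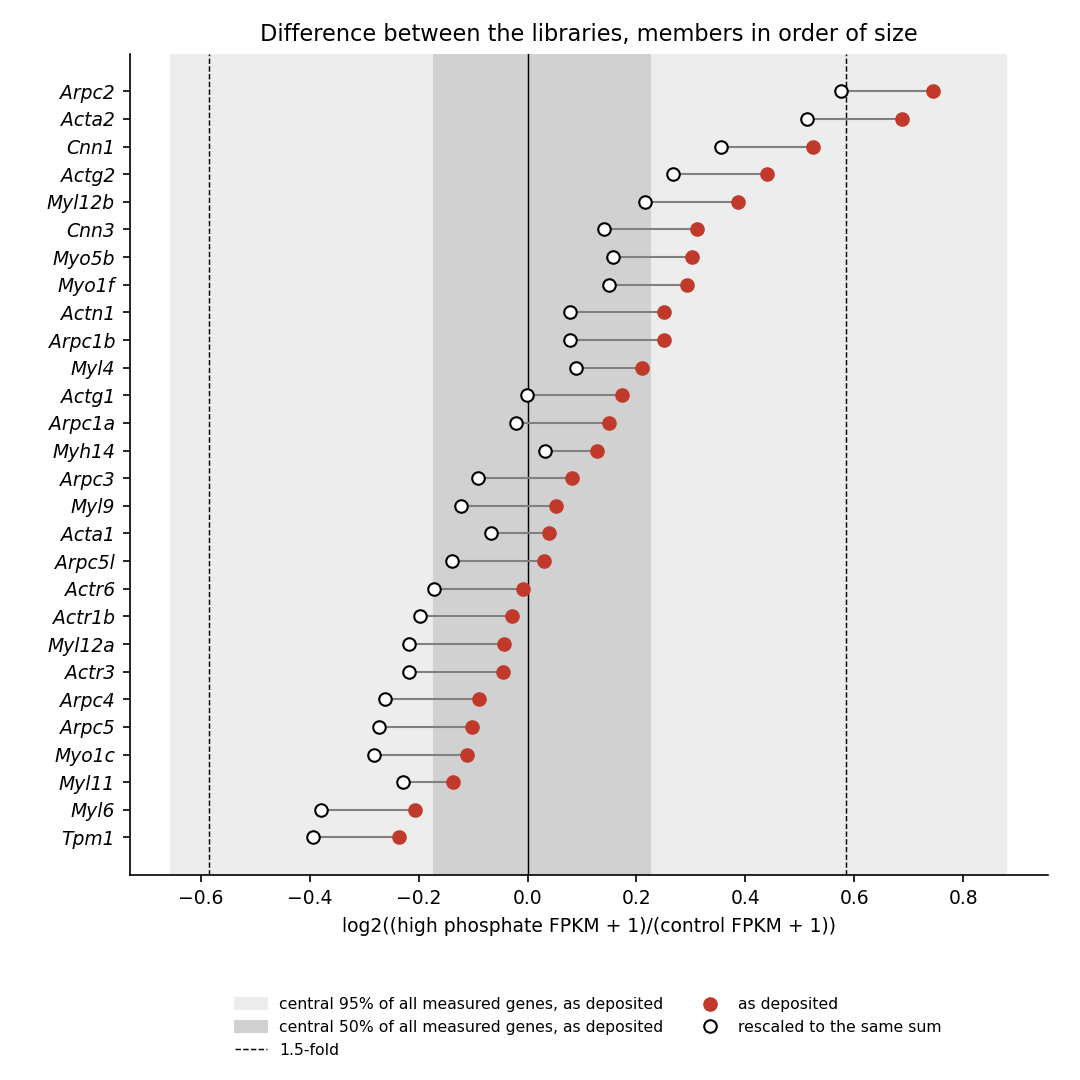
Log2 ratio of high phosphate over control for the 28 measured members, with filled circles for FPKM as deposited and open circles after rescaling to the same sum; dashed lines mark 1.5-fold and grey bands the central 50% and 95% of all measured genes. Arpc2 (0.74) and Acta2 (0.69) lie beyond 1.5-fold as deposited and inside it at the same sum, and no member leaves the central 95%.

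The measured members were set beside the central 95% of all genes in 3 ranges of abundance, and each lay inside it. For the 1816 genes with a mean from 1 to 10 FPKM it was -0.85 to 1.02 in log2 ratio, and the 6 members there ran from Myl11 (-0.14) to Myo5b (0.30). For the 2097 genes with a mean from 10 to 100 FPKM it was -0.52 to 0.75, and the 9 members there ran from Tpm1 (-0.24) to Arpc2 (0.74). For the 453 genes of at least 100 FPKM it was -0.41 to 0.86, and the 13 members there ran from Myl6 (-0.21) to Acta2 (0.69). Of these 453 genes, 7.51% were at least 1.5-fold higher and 70.2% had a log2 ratio above 0. Of the 13 members, 1 (Acta2) was at least 1.5-fold higher and 7 were above 0 as deposited, with a median of 0.05 against 0.15 over the 453 genes.

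**Figure D4:**
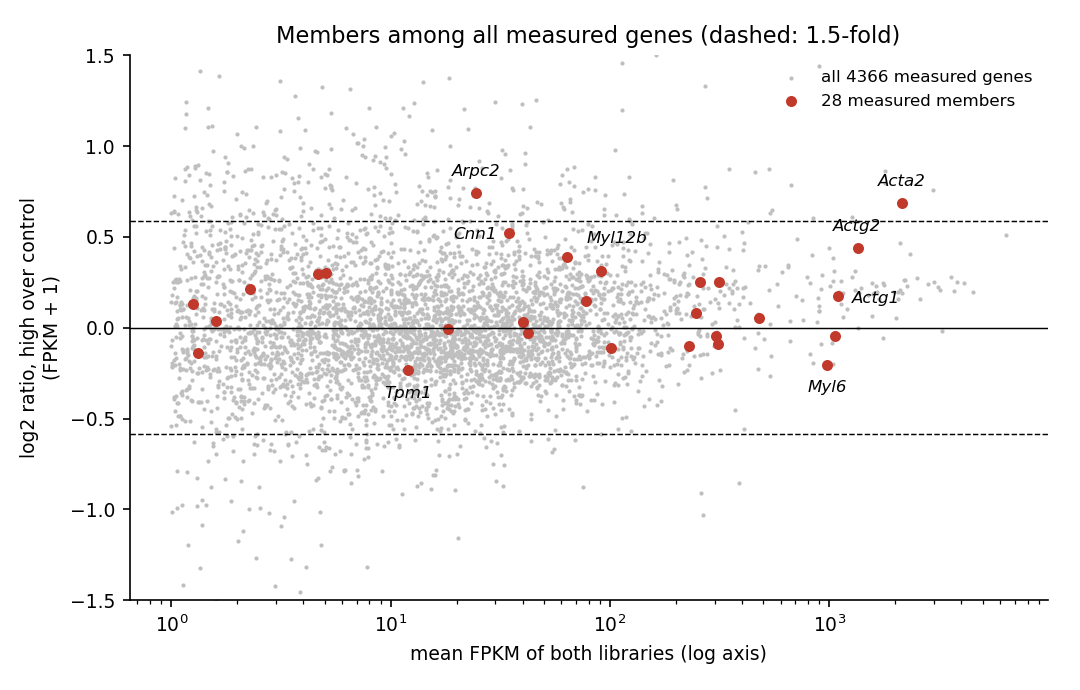
Log2 ratio against mean FPKM (log axis) for all 4366 measured genes (grey) and the 28 measured members (red), with dashed lines at 1.5-fold; 46 genes beyond 1.5 log2 units are outside the frame. Members of high abundance spread from Myl6 (-0.21) to Acta2 (0.69) and lie within the cloud of other genes.

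Genes that act with the members were followed in lists by role, whose counts were not tested against all measured genes. Among the latter, 50.5% were above 0 and 7.24% at least 1.5-fold higher as deposited. At the same sum 32.2% were above 0. Among the 453 genes of at least 100 FPKM, 70.2% were above 0 as deposited. The list tied to serum response factor or smooth muscle outside the members named 21 genes, of which 8 were measured. All 8 were higher as deposited and 7 at the same sum, with a median log2 ratio of 0.35, and 2 were at least 1.5-fold higher. Ccn1, Ccn2, Csrp1, Des and Tagln of this list averaged at least 100 FPKM. Csrp2, a LIM protein of smooth muscle, led with 34.1 FPKM in high phosphate and 18.1 FPKM in the control (log2 ratio 0.88). The matricellular factor Ccn1 was last, with 208 FPKM in high phosphate and 185 FPKM in the control, and was the 1 gene that turned lower at the same sum. Tagln, the actin-binding protein transgelin, was named after its values were seen and had 1146 FPKM in high phosphate and 845 FPKM in the control. Srf itself was not analysed here.

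Sarcomere genes outside the members were mostly low, and 4 of 11 listed were measured, with a median of 0.34. All 4 were higher as deposited, of which Mybphl, named after its values were seen, turned lower at the same sum. Casq2, the cardiac calcium store protein calsequestrin, had 75.5 FPKM in high phosphate and 47.6 FPKM in the control. Its skeletal counterpart Casq1 had 20.5 FPKM in high phosphate and 15.4 FPKM in the control. Neither is a filament protein.

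Factors that turn actin over stood near the members' own median. Of 12 measured, 8 were higher and 4 lower as deposited and 6 were higher at the same sum, with a median of 0.12. The capping protein Capg had the highest log2 ratio, with 49.4 FPKM in high phosphate and 30.7 FPKM in the control. Wdr1, a cofactor of cofilin, had the lowest, with 157 FPKM in high phosphate and 173 FPKM in the control. The monomer-binding proteins were named after their values were seen: Tmsb4x had 7491 FPKM in high phosphate and 5257 FPKM in the control, whereas profilin, Pfn1, had 1348 FPKM in high phosphate and 1350 FPKM in the control.

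Crosslinkers and adhesion linkers had 8 of 11 measured genes higher as deposited and 5 at the same sum (median 0.14). The LIM protein of adhesions Tes led with 75.4 FPKM in high phosphate and 43.2 FPKM in the control, and Evl, of the Ena/VASP family, was last with 5.56 FPKM in high phosphate and 6.12 FPKM in the control. Nucleation and branching regulators were lower in 4 of 6 cases as deposited and in 5 at the same sum (median -0.19). Coro1b, which acts on Arp2/3 branches, had 76.4 FPKM in high phosphate and 94.2 FPKM in the control, and Brk1, a WAVE complex subunit, was highest among those of at least 5 FPKM, with 156 FPKM in high phosphate and 152 FPKM in the control (log2 ratio 0.03, and -0.14 at the same sum). The 1 gene of the list beyond 1.5-fold was Wasf1, named after its values were seen, with 4.39 FPKM in high phosphate and 1.98 FPKM in the control.

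**Figure D5:**
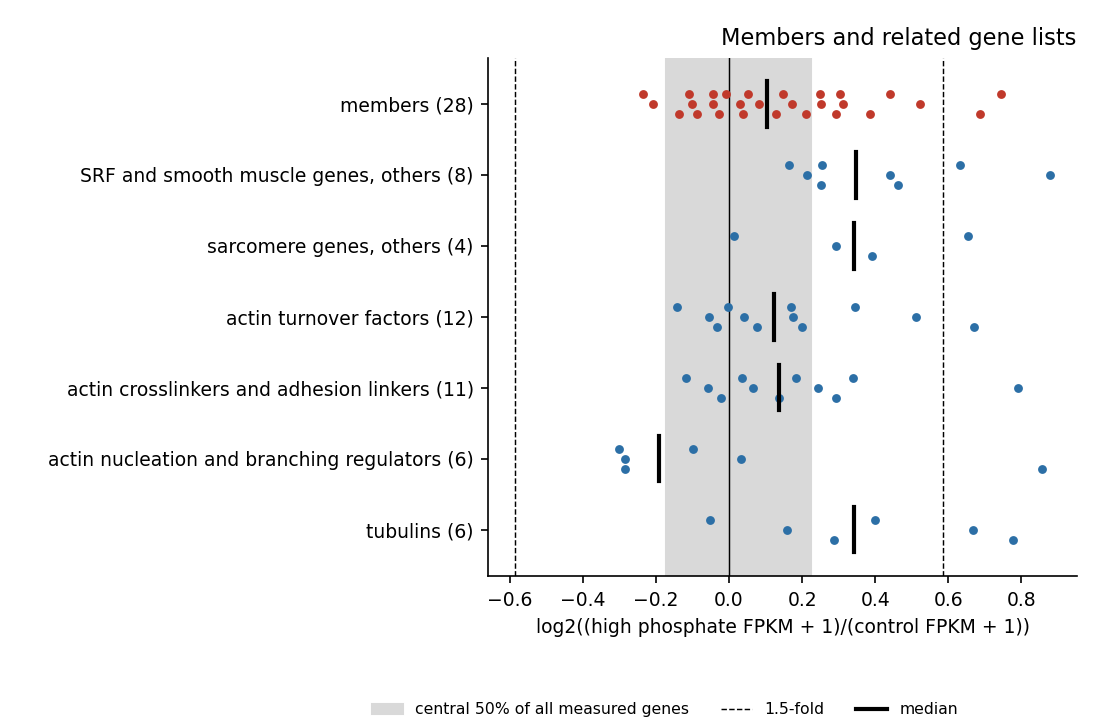
Log2 ratio of each measured gene among the members (red) and in 6 related lists (blue), with the number of genes in brackets, a black bar at the median and dashed lines at 1.5-fold, from FPKM as deposited. Medians run from -0.19 for nucleation and branching regulators to 0.35 for serum response factor and smooth muscle genes, and at the same sum from -0.36 for nucleation and branching regulators to 0.21 for sarcomere genes.

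Markers of cell types were read beside these values. Of 6 listed smooth muscle markers, 5 were measured, and the list, which holds Acta2 and Cnn1, summed to 4031 FPKM in high phosphate and 2679 FPKM in the control. Fibroblast markers summed to 4427 FPKM in high phosphate and 4021 FPKM in the control as deposited. Of 8 listed, 6 were measured, and Pdgfra was at 0 in both libraries. Most of the sum came from S100a4, with 3249 FPKM in high phosphate and 3291 FPKM in the control. Its log2 ratio was -0.02 as deposited and -0.19 at the same sum. The other measured ones, named after their values were seen, were higher as deposited and at the same sum. At the same sum their log2 ratios were 0.27 for Thy1, 0.54 for Col1a1, 0.50 for Dcn, 0.63 for Lum and 0.61 for Col3a1. Col1a1 averaged only 1.3 FPKM. The collagen gene Col3a1 had the highest log2 ratio of these markers as deposited, with 844 FPKM in high phosphate and 489 FPKM in the control. Whether the share of fibroblast-like cells has a part in the higher Acta2 was not tested, and in 1 bulk library per level a different mix of cells cannot be told apart from a different level per cell. Only 3 of 13 cardiac muscle markers were listed, none was measured, and Ryr2 was at 0 in both libraries. Skeletal muscle markers summed to 158 FPKM in high phosphate and 138 FPKM in the control, nearly all of it Des, which is also a smooth muscle marker. The myogenic factor Myod1, 1 of 3 measured markers of the skeletal list, had 1.59 FPKM in high phosphate and 6.11 FPKM in the control (log2 ratio -1.46). The other measured ones did not share this difference. Des had a log2 ratio of 0.25 as deposited and 0.08 at the same sum, and Acta1 had 0.04 as deposited and -0.07 at the same sum. The low ones, named after their values were seen, were at 0.75 FPKM or less. Myh1, Chrna1, Myog, Tnni2, Mymk, Myh3 and Myh4 had the lower value in high phosphate and Tnnt3 the higher one. Ckm and Chrng had equal values, and at such levels a difference was not detectable with 1 library each. The markers of endothelial cells summed to 0.36 FPKM in high phosphate and 0.08 FPKM in the control, and those of macrophages and leukocytes to 1.6 FPKM in high phosphate and 1.21 FPKM in the control.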

How the data were processed

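RNA of H9c2 cells was sequenced, with 1 library at 2.5 mM and 1 at 0.9 mM phosphate. The values are FPKM, deposited by the authors with 2 decimals, per the file headers. Cufflinks 2.2.1, Cuffdiff, TopHat2 2.1.1, bcl2fastq and the build Rnor_6.0 are named in the submitters' processing notes. The sources used here give neither the step each served nor the annotation, strand settings or scaling between libraries. Of 8039 entries, 236 had an identifier that could not be used. Names came from a GRCr8 gene table, which matched 7746 of 7803 entries. Listed FPKM summed to 346857 in high phosphate and 307622 in the control. The depth is unknown, so no interval is given.

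The log2 ratio used a pseudocount of 1 FPKM, and measured genes averaged at least 1 FPKM. Some genes are not reported here. Every measured member was named, with values for low members that reached 0.5 FPKM in either library and ranges for most others. Of each related list, the highest and lowest gene of at least 5 FPKM were named. The members, lists and thresholds were chosen with earlier results of these data known. Calculations were tested on simulated data and used Python 3.11.15, numpy 2.4.6, pandas 2.3.3 and matplotlib 3.10.9.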

Additional observations from a re-analysis of the deposited data

How the results depend on the processing

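Results were recomputed with pseudocounts of 0.5 and 0.1, with 4 rescalings, with no filter on low values, with a mean of at least 5 FPKM and with at least 1 FPKM in both libraries. No member that passed a setting's filter reached 2-fold in either direction under these 9 settings. Smaller pseudocounts were applied to measured members in these counts; 2 low members passed 2-fold with them, Myh1 with log2 ratios of -1.11 (pseudocount 0.5) and -2.77 (pseudocount 0.1) and Myl2 with 1.20 (pseudocount 0.1). The number of members at least 1.5-fold higher was 2 in every setting except the rescaling to the same sum, where it was 0; the median log2 ratio of the members there was -0.044, against -0.15 over all measured genes. The number at least 1.5-fold lower was 0 throughout except with no filter on low values, where it was 1 (Myh1, listed at 0 FPKM in high phosphate). Without Acta2, Actg2 made up 57.1% of the remaining actin FPKM in high phosphate and 52.5% in the control, Actg1 42.9% in high phosphate and 47.5% in the control, and Acta1 0.0605% in high phosphate and 0.0723% in the control. Without Myh14, Myh11 made up 64.9% of the remaining heavy chain FPKM in high phosphate and 40.8% in the control. Myh11 itself had 0.61 FPKM in high phosphate and 0.6 FPKM in the control. The remaining sum was 0.94 FPKM in high phosphate and 1.47 FPKM in the control. Myh1 gave 0 FPKM of it in high phosphate and 0.58 FPKM in the control. No paired analysis was possible because each phosphate level had 1 library. Depth is unknown, so the counting error of low members cannot be stated.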

Other observations

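Tubulins, which build the other filament system of the cytoskeleton, were listed beside the actins. The list named 16 tubulin genes, of which 6 were measured. Of these 6, 5 were higher as deposited and 4 at the same sum, with a median log2 ratio of 0.34, and 2 were at least 1.5-fold higher as deposited. Among all measured genes, 50.5% were above 0 and 7.24% at least 1.5-fold higher as deposited, and 32.2% were above 0 at the same sum. Tuba1a had 344 FPKM in high phosphate and 200.4 FPKM in the control, a log2 ratio of 0.78, and Tubb2a, named after its values were seen, had 75.3 FPKM in high phosphate and 47.1 FPKM in the control. The gamma-tubulin Tubg1, which nucleates microtubules, had 44.1 FPKM in high phosphate and 45.7 FPKM in the control. Tubulin genes share long stretches of sequence, so the split among them is uncertain.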
